A study of Mus musculus with 6 samples.

Results

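Glycolysis and its control by the hypoxia-inducible factor HIF1A were followed through 34 genes of the 24062 RefSeq genes counted in RAW264.7 cells, a mouse macrophage line. The genes were taken by symbol from a fixed list, which was chosen with earlier results of these data known. They comprise Hif1a itself, 2 HIF prolyl hydroxylases, 3 glucose and lactate transporters, 15 glycolytic enzymes, 3 regulators of glycolytic flux and 10 further HIF1A target genes. RNA was sequenced in 6 conditions. M0 cells were left unpolarized, M1 cells were given LPS at 100 ng/mL together with IFN-γ at 20 ng/mL over 24 h, and M2 cells were given IL-4 at 20 ng/mL over 24 h. RM0, RM1 and RM2 are the same states after 10 Gy of γ-rays, collected after another 24 h, and whether non-irradiated cells were kept for that further time is not stated. Each condition is 1 library of RNA pooled from 5 wells of a single cell line, so no value carries a replicate spread. The labels name bone marrow as the tissue, although the cells are an established line.

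HIF1A is a transcription factor whose protein, rather than its transcript, is the classical point of control. In the presence of oxygen, prolyl hydroxylases mark it for destruction through the VHL ubiquitin ligase, and when it escapes it pairs with ARNT and binds short DNA elements near its target genes. Macrophages activated by LPS are known for a shift towards glycolysis and for HIF1A activity even in normal oxygen, whereas IL-4-treated macrophages are known for a stronger reliance on mitochondrial respiration. Only transcripts were measured here.

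The core letters of the HIF element, ACGTG and GCGTG, were searched on both strands in windows from 250 bases before to 50 bases after the annotated start (RefSeq, GRCm38.p6). A promoter was found for 32 of the 34 genes and none for Slc2a3 and Ndrg1. In the first listed window of each gene, ACGTG was present in 18 of 32 members (56.2%), compared with 19.7% of the first windows of 27025 genes. GCGTG was present in 17 members (53.1%), compared with 32.5%, and either one in 25 members (78.1%), compared with 43.8%. The member windows were also richer in G and C, at 62.6% against 53.6%, and the share of matches that goes with base composition was not tested. The 250 bases upstream of the start are shown for Hif1a, for 4 genes that were higher in M1 cells (Slc2a1, Pfkfb3, P4ha1 and Pgk1), for Pdk1, which was lower, and for Ldha. Ldha passed no test and has the most matches of these first windows, at 5 places, of which 3 lie in the bases shown. Capitals mark these letters on either strand, the reverse complement of ACGTG being CACGT and that of GCGTG being CACGC. A palindromic CACGTG is read on both strands and counted as 1 place.
Hif1a, chr12:73907617-73907866, plus strand: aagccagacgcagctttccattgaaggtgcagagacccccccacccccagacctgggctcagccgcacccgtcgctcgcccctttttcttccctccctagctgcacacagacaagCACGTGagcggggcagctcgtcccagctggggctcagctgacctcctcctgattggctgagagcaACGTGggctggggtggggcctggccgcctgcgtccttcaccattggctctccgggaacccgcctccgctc
Slc2a1, chr4:119108495-119108744, plus strand: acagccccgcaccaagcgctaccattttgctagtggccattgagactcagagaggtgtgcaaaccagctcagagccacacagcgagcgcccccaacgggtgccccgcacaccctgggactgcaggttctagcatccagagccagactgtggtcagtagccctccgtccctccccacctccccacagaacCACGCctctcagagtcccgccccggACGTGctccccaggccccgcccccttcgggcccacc
Pfkfb3, chr2:11553930-11554179, minus strand: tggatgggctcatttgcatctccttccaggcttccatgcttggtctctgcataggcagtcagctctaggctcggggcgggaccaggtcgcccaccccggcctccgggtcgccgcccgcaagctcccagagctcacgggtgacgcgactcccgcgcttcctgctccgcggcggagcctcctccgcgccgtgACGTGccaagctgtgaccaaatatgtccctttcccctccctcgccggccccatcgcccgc
P4ha1, chr10:59323046-59323295, plus strand: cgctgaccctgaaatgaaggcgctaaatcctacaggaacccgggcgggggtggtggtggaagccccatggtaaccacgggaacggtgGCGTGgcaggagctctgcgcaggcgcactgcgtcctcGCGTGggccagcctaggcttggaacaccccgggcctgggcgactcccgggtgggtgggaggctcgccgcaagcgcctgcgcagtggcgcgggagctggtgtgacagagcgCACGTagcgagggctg
Pgk1, chrX:106186850-106187099, plus strand: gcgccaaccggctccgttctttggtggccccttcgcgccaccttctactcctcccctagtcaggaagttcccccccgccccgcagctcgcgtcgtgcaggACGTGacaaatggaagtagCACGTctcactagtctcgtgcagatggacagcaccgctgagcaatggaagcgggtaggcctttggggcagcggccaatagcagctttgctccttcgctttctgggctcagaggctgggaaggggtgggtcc
Pdk1, chr2:71872974-71873223, plus strand: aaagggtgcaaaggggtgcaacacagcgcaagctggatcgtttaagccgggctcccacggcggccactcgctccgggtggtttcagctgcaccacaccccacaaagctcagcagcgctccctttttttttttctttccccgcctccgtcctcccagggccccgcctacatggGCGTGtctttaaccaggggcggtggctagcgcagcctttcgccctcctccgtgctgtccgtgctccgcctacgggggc
Ldha, chr7:46845554-46845803, plus strand: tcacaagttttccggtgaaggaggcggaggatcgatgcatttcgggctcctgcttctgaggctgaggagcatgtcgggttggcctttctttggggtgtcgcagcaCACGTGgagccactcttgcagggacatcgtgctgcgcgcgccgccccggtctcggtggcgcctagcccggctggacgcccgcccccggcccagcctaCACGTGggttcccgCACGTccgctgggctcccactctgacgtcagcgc
Every gene shown has at least 1 match in these windows, Pdk1 included. Among the genes that passed edgeR's test as higher in the M1 state, 7 of 10 with a promoter had a match, and Hk1, Aldoa and Tpi1 had none in the first window. Among those placed lower, 6 of 6 had one, and among the 15 with no call, 11 had one. These counts use the first listed window only, and Hk1, Aldoa, Pkm, Vegfa and Mxi1 had matches in another listed window. The letters alone therefore did not separate the genes by direction, and a match is a description of sequence rather than a binding site.

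The libraries held 17894937 to 18870516 counts. In all, 33 of the 34 genes passed the filter of 10 counts in at least 3 libraries. Egln3 did not, with 0 to 4 counts in every library, and no fold change is given for it. Counts were scaled with TMM, whose factors ranged from 0.8004 in M1 to 1.134 in M2, and all CPM values (counts set to a common library size) and fold changes below use it. Scaling by library totals lowered the median log2 fold change of all genes by 0.44 in M1 against M0 and by 0.25 in RM1 against RM0, and raised it by 0.14 in RM1 against M1. In the other 4 comparisons it moved the median by at most 0.06, so for the M1 state each change is relative to that shift.

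Of the 9 macrophage markers listed, 8 were found, and all of these but Mertk (3 to 8 counts) were well counted. Their summed counts were 258538 in M1, 338144 in RM1 and 468131 to 653453 in the others, mostly from Lyz2 (199329 to 580239). The 5 epithelial markers were at 0 in every library, and summed counts of T cell, B cell and erythroid markers were at most 4. Of 7 fibroblast markers, Col1a2 and Col3a1 were at 0, while the summed counts were 648 in M1 and 765 in RM1, compared with 133 to 205 in the others, mostly from Dcn. The part of these markers in the M1 differences was not tested. In pooled cultures, fewer cells of a type and less RNA per cell cannot be told apart.

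Some members carry uncertain counts. Near-identical copies share 67% of the 100-base windows of Pgk1, 59% of Eno1, 39.7% of Pgam1, 33.5% of Bnip3 and 32.3% of Higd1a, and reads from such copies may have been split or moved. The listed start and end span only 3.19% of the annotated extent of Eno1, 20.2% of Slc2a3, 24.2% of Hk1, 33.4% of Ankrd37 and 53.2% of Aldoc, so the part of these genes that was counted is not known.

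**Figure D1:**
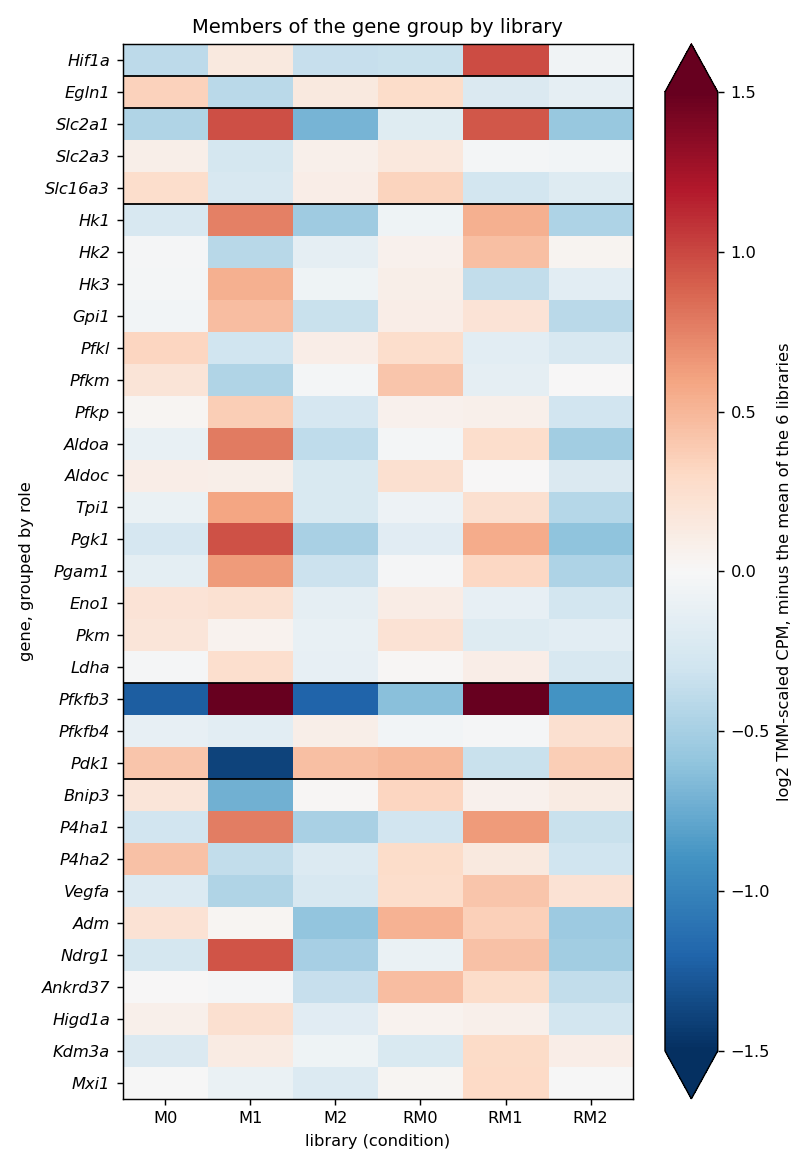
Level of the 33 genes past the count filter in the 6 libraries, as log2 of TMM-scaled CPM minus the gene's mean over the libraries (color), with rows grouped by role and 1 library per column. The M1 and RM1 columns are red for Slc2a1, Hk1, Pgk1, Pfkfb3 and P4ha1 and blue for Pdk1, Egln1 and Slc16a3, and Slc2a1, Hk1, Aldoa, Pgk1 and Ndrg1 are blue in the M2 and RM2 columns.

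Hif1a (NM_010431, chromosome 12 of GRCm38, 73907867 to 73947530) was highest in RM1 cells. Its counts were 2766, 2992 and 2893 in the M0, M1 and M2 libraries and 2815, 5989 and 3474 in RM0, RM1 and RM2. As CPM these were 139, 202, 143, 144, 359 and 175, so that RM1 stood apart from the other libraries and M1 came next. M1 exceeded M0 by a log2 fold change of 0.54 (95% interval 0.46 to 0.61, an exact Clopper-Pearson interval that covers counting error only), and RM1 exceeded RM0 by 1.32 (1.26 to 1.39). It was 0.03 in M2 against M0 (-0.04 to 0.11) and 0.04 in RM0 against M0 (-0.03 to 0.12), so M0, M2 and RM0 were not separated at this depth. Scaled by library totals, it was 0.10 in M1 against M0 and 1.07 in RM1 against RM0. In edgeR's quasi-likelihood test over all 6 libraries, which treats the irradiated and non-irradiated pair as replicates of a state, Hif1a rose in the M1 state by a log2 fold change of 0.94 (Benjamini-Hochberg adjusted p = 0.00122 over 11574 genes).

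Of the prolyl hydroxylases, which mark HIF1A for destruction, Egln1 moved the other way. Without irradiation, 749, 332 and 667 counts were found in M0, M1 and M2, and after 10 Gy 710, 427 and 540, and both M1 libraries lay below the other 4 after scaling. It fell in the M1 state, with a log2 fold change of -0.62 (edgeR, adjusted p = 0.00475). Egln1 (NM_053207, chromosome 8, 124908587 to 124949254) held 2 of the HIF letters in its promoter window.

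The glucose transporter gene Slc2a1 (NM_011400, chromosome 4, 119108745 to 119137329), which encodes GLUT1, was among the most strongly raised members. The M0, M1 and M2 libraries held 12727, 25368 and 11056 counts of it, and their irradiated counterparts 15217, 28096 and 11792. Both M1 libraries lay far above the other 4, at 1716 and 1685 CPM compared with 545 to 777. The log2 fold changes were 1.42 in M1 against M0 (1.39 to 1.45) and 1.12 in RM1 against RM0 (1.09 to 1.15), and the gene rose in the M1 state by 1.27 (edgeR, adjusted p = 7.27e-05). Slc16a3, which encodes the lactate exporter MCT4, went down instead, from 6606 counts in M0 to 3455 in M1 and from 6830 in RM0 to 3796 in RM1. It fell in the M1 state, with a log2 fold change of -0.56 (edgeR, adjusted p = 0.0054). Slc2a3, a second glucose transporter gene, had 455 to 809 counts and did not pass (log2 fold change -0.27, adjusted p = 0.116 by edgeR).

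Along the glycolytic chain, 5 of the 15 enzyme genes rose in the M1 state and 2 fell, by edgeR, beside 23.3% and 24.3% of the 11574 genes tested. Hk1, a hexokinase that commits glucose to the cell, rose by a log2 fold change of 0.80 (edgeR, adjusted p = 0.000933). Further down the chain, Aldoa rose by 0.60, Tpi1 by 0.50, Pgk1 by 0.97 and Pgam1 by 0.55 (edgeR, adjusted p = 0.0204, 0.0175, 0.00103 and 0.0101). These 4 genes encode the aldolase, the triose phosphate isomerase, the phosphoglycerate kinase and the phosphoglycerate mutase, which lie between the splitting of the sugar and the enolase. Pfkl and Pfkm, which encode phosphofructokinase subunits, fell by 0.52 and 0.59 (edgeR, adjusted p = 0.0102 and 0.00793). The last steps stayed without a call, with log2 fold changes of -0.11 for Eno1, -0.27 for Pkm and 0.18 for Ldha (edgeR, adjusted p = 0.562, 0.219 and 0.343). Only Pgk1 was called at 2-fold in M1 against M0, at 1.20 (1.19 to 1.22), and Hk1 stood at the threshold with 1.00 (0.95 to 1.05). For all 5 raised enzymes the difference was smaller in irradiated cells, at 0.60, 0.29, 0.31, 0.73 and 0.32 for Hk1, Aldoa, Tpi1, Pgk1 and Pgam1 in RM1 against RM0. Differences were smaller in that pair over all genes too. The 25th and 75th percentiles of all genes were -0.58 and 0.46 in M1 against M0, and -0.41 and 0.35 in RM1 against RM0.

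**Figure D2:**
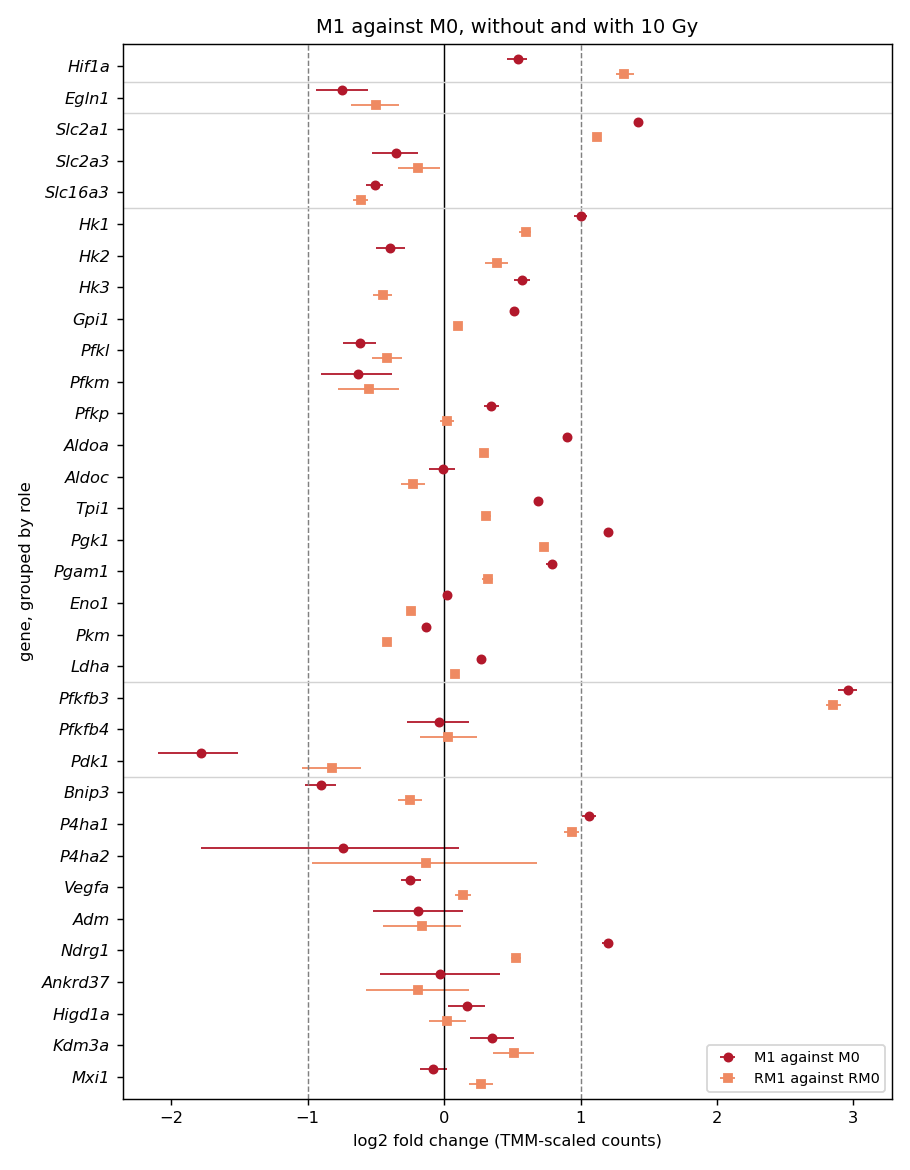
Log2 fold change of 33 genes in M1 against M0 (circles) and RM1 against RM0 (squares), with 95% exact intervals that cover counting error only and dashed lines at 2-fold. Pfkfb3 lies near 3 in both comparisons and Pdk1 lies at -1.78 and -0.82, while most enzymes are closer to 0 in the irradiated pair. The 25th and 75th percentiles of all genes, which are not drawn, are also closer to 0 in that pair.

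Aldoa shows the size of the counts behind these values. Its counts were 57797, 80453 and 49020 in the M0, M1 and M2 libraries and 60640, 63208 and 43743 in RM0, RM1 and RM2. M1 was highest and RM1 next, and the other 4 libraries lay below both. Scaled by library totals, its difference from M0 to M1 was 0.46 on the log2 scale, and that from RM0 to RM1 was 0.04.

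The hexokinase and phosphofructokinase genes did not move as families. As CPM per kilobase of the longest annotated transcript, Hk1 was at 71.1 in M0 and 142 in M1, Hk3 at 69.9 and 104, and Hk2 at 18.8 and 14.3. In RM1 the levels were 122 for Hk1, 55.7 for Hk3 and 26.2 for Hk2. Hk3 thus had its highest level in M1 and its lowest in RM1, and Hk2 the reverse. Neither passed for the M1 state over all 6 libraries, with adjusted p = 0.775 for Hk3 and 0.959 for Hk2 by edgeR. With M1 or RM1 left out, the other one stood alone in its state and added nothing to the estimate of spread, so only effect sizes are given. The log2 fold changes were 0.52 for Hk3 and -0.37 for Hk2 without RM1, and -0.40 and 0.37 without M1. Pfkp was the most abundant phosphofructokinase gene in all libraries, at 45.7 in M1 compared with 15.8 for Pfkl and 4.25 for Pfkm, and its own difference did not pass (log2 fold change 0.18, adjusted p = 0.266 by edgeR).

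**Figure D3:**
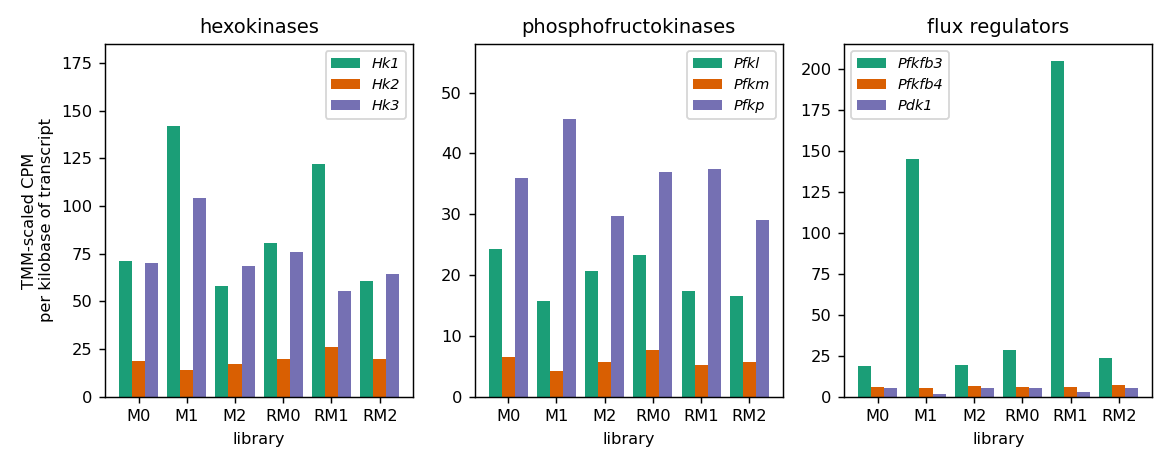
TMM-scaled CPM per kilobase of the longest annotated transcript (bars, from 0) of the hexokinase genes, the phosphofructokinase genes and the 3 flux regulators in each of the 6 libraries. Hk3 is highest in M1 and lowest in RM1, Pfkp leads its family throughout, and Pfkfb3 reaches 145 in M1 and 205 in RM1 from 18.6 to 28.4 in the others.

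Pfkfb3 (NM_001177758, chromosome 2, 11471431 to 11553929) showed the largest change of all members. It encodes the enzyme that makes fructose 2,6-bisphosphate, the strongest activator of phosphofructokinase. Without irradiation, 1773, 10289 and 1859 counts were found in M0, M1 and M2, and after 10 Gy 2667, 16413 and 2250. Both M1 libraries were several times above every other library. The log2 fold changes were 2.96 (2.89 to 3.03) in M1 against M0 and 2.85 (2.80 to 2.91) in RM1 against RM0, and the rise in the M1 state was 2.91 (edgeR, adjusted p = 3.27e-07). Its relative Pfkfb4 had 285 to 507 counts and a log2 fold change of -0.01 (edgeR, adjusted p = 0.973).

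Pdk1 (NM_172665, chromosome 2, 71873224 to 71903858) moved in the opposite direction. It encodes a kinase that closes the entry of pyruvate into the mitochondrial cycle. The M0, M1 and M2 libraries held 545, 117 and 574 counts of it, and their irradiated counterparts 568, 273 and 530. M1 was lowest, RM1 next, and the other 4 libraries lay close together. Its log2 fold changes were -1.78 in M1 against M0 (-2.10 to -1.51) and -0.82 in RM1 against RM0 (-1.04 to -0.61), and the gene fell in the M1 state by 1.24 (edgeR, adjusted p = 0.00124).

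The remaining HIF1A targets were mixed. P4ha1, a catalytic subunit of the collagen prolyl hydroxylase, rose by 1.00 in the M1 state, from 4877 counts in M0 to 7567 in M1 and from 4812 in RM0 to 7835 in RM1 (edgeR, adjusted p = 0.000148). Ndrg1, a stress-responsive gene, rose by 0.87 and Kdm3a, a histone demethylase gene, by 0.43 (edgeR, adjusted p = 0.00185 and 0.0154). Bnip3, which encodes a mitochondrial protein that promotes mitophagy, fell by 0.56 (edgeR, adjusted p = 0.0166), with 926 counts in M1 and 1808 to 2526 elsewhere. The other 6 of these genes did not pass, with log2 fold changes from -0.44 for P4ha2 to 0.10 for Mxi1. Among them Vegfa, the classical angiogenic target, had a log2 fold change of -0.05 (edgeR, adjusted p = 0.805). P4ha2 had only 15 to 35 counts, and its intervals spanned 0 in both M1 comparisons.

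Counted over the group, 5 of the 33 genes were called higher at 2-fold in M1 against M0 (Slc2a1, Pfkfb3, Pgk1, P4ha1 and Ndrg1), beside 9.37% of all genes that reached 10 counts in either library, and Pdk1 was called lower, beside 13.3%. In RM1 against RM0, 3 were called higher (Hif1a, Slc2a1 and Pfkfb3), beside 6.16%, and 0 lower, beside 7.87%. The median log2 fold change of the members was 0.02 and 0.03, beside -0.03 and -0.01 over all genes, with members on both sides of 0. By edgeR, 11 of 33 passed as higher and 6 as lower, beside 23.3% and 24.3% of the 11574 genes tested. After scaling, both M1 libraries lay above the other 4 for 15 of 33 members (45.5%, beside 29.6% of all genes) and below them for 4, Pfkm, Slc16a3, Pdk1 and Egln1 (12.1%, beside 32.1%).

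The M1 calls of Hif1a, Slc2a1, Hk1, Pfkfb3, P4ha1, Ndrg1, Pfkl, Pdk1 and Egln1 held with both other scalings and without the count filter. They also held without the irradiation term and in DESeq2's test. Their log2 fold changes kept their signs in all 11 alternative fits, that of Hif1a being 0.60 without RM1 and 1.26 without M1. With M0, M1, RM0 or RM1 left out, 1 library stood alone in a compared state, so calls kept there are not counted as support. Without M0, 7 members passed as higher, and Aldoa (adjusted p = 0.428), Tpi1 (0.322), Pgk1 (0.069), Pgam1 (0.225) and Bnip3 (0.0778) did not. Aldoa, Tpi1 and Kdm3a were also lost without M2 (0.0726, 0.0771 and 0.0614), without RM2 (0.0749, 0.0786 and 0.0587) and without RM0 (0.0796, 0.0548 and 0.117). Pfkm (0.051) and Slc16a3 (0.0753) were lost without RM0, and Bnip3 (0.12) without M1. With library totals in place of TMM, only Pfkfb3 was called higher at 2-fold in M1 against M0 and 6 members were called lower, and 7 passed edgeR as higher and 10 as lower. Aldoa, Tpi1, Pgam1 and Kdm3a lost their calls there, and Slc2a3, Aldoc, Eno1 and Pkm became lower.

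In M2 cells nearly the whole chain stood slightly below M0. Of 33 members, 28 had a log2 fold change below 0 in M2 against M0 and 30 in RM2 against RM0, and these comparisons share no library. All 15 glycolytic enzymes were below 0 in both, from -0.34 to -0.03 and from -0.51 to -0.03, and 14 in each when scaled by library totals, with Hk3 and then Hk2 at 0.03. The member medians were -0.20 and -0.38, beside 0.00 and 0.00 over all genes, and 23 members in each comparison lay under the 25th percentile of all genes. Scaled by library totals, 25 and 26 members were below 0. The differences were small, and 0 members were called at 2-fold in M2 against M0, beside 1.44% of all genes, while Adm was called lower in RM2 against RM0, beside 2.61%, but not with library totals (-0.99).

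Adm, which encodes the vasodilator peptide adrenomedullin, was the member with the lowest fold change in both M2 comparisons. Its counts were 199, 130 and 116 in the M0, M1 and M2 libraries and 241, 183 and 117 in RM0, RM1 and RM2. Both M2 libraries were lowest, also after scaling. Its log2 fold change was -0.80 (-1.15 to -0.47) in M2 against M0 and -1.05 (-1.39 to -0.74) in RM2 against RM0.

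The test across all 6 libraries gave no member a call for the M2 state. By edgeR 0 of 33 passed, beside 0.19% of all genes, with 10 at an unadjusted p under 0.05 (beside 10.1% of all genes at that threshold) and the smallest adjusted p at 0.0884 for Adm, and DESeq2 also passed 0. The outcome differed with M1 or RM1 left out, and the cause was not tested. Without M1, where RM1 stood alone in its state and added nothing to the estimate of spread, 15 members passed as lower, beside 5.43% of all genes. Without RM1, 16 did, beside 5.42%. The 15 genes lower in both fits were Slc2a1, Slc16a3, Hk1, Gpi1, Pfkl, Pfkp, Aldoa, Aldoc, Pgk1, Pgam1, Eno1, Pkm, Adm, Ndrg1 and Ankrd37. They include 10 of the 15 enzymes, among them Gpi1, the isomerase after hexokinase (log2 fold change -0.40), and Pkm, the pyruvate kinase of the last step but lactate formation (-0.34). Over all 6 libraries neither of these 2 passed (edgeR, adjusted p = 0.463 and 0.515). Both fits have fewer residual degrees of freedom than the 2 of the fit over all 6 libraries. They take the M2 difference and the residual spread from the same 4 libraries only, M0, RM0, M2 and RM2. Agreement between the fits was therefore largely fixed by the design and is not separate evidence for these genes. Hif1a was not among them, with a log2 fold change of 0.16 without M1.

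**Figure D4:**
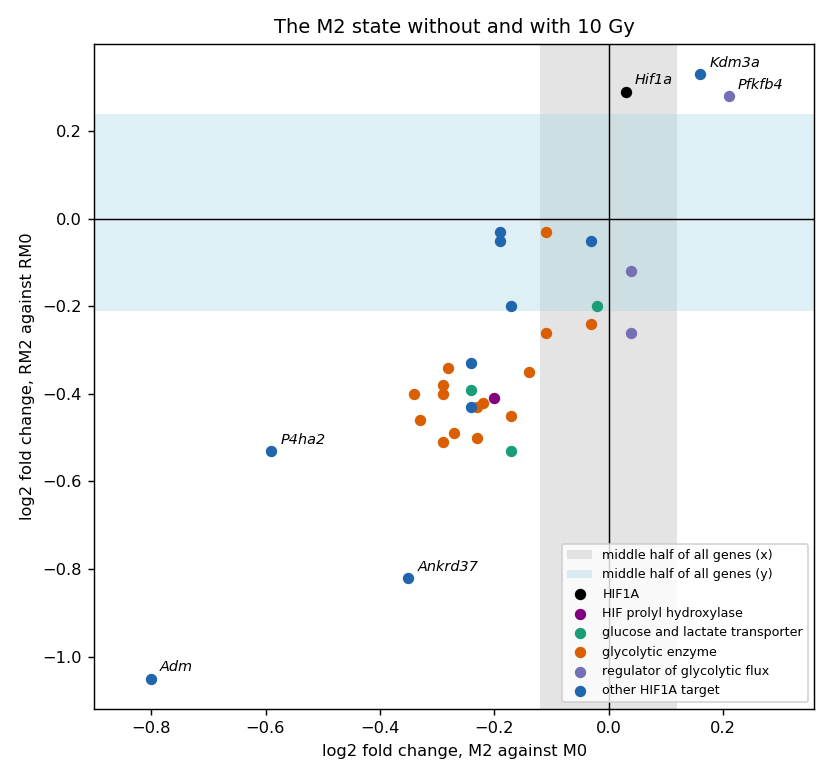
Log2 fold change of each of the 33 genes in M2 against M0 (horizontal) and RM2 against RM0 (vertical), colored by role, with bands from the 25th to the 75th percentile of all genes on each axis. The 15 enzymes lie below 0 on both axes, Adm is lowest at -0.80 and -1.05, and Hif1a, Kdm3a and Pfkfb4 are above 0 on both.

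The difference after 10 Gy was plainest for Vegfa (NM_009505, chromosome 17, 46016993 to 46032377), which encodes the main angiogenic growth factor. Without irradiation, 3707, 2330 and 3702 counts were found in M0, M1 and M2, and after 10 Gy 5093, 4782 and 4980. Each irradiated library held more counts than every non-irradiated library. The log2 fold changes after 10 Gy were 0.48 (0.41 to 0.54) in M0, 0.86 (0.79 to 0.94) in M1 and 0.46 (0.40 to 0.52) in M2. By edgeR it rose by 0.60 with an adjusted p of 0.0486, the only member to pass for irradiation, beside 0.475% of all genes. The call was lost without M2 (adjusted p = 0.0802), without RM2 (0.0746), without both (0.0624) and with library totals (0.184), while the log2 fold change stayed between 0.47 and 0.68. At an unadjusted p under 0.05 stood 5 of 33 members, beside 14.7% of all genes. Besides Vegfa these were Hif1a, Hk2, Pfkfb3 and Bnip3, with log2 fold changes above 0 that did not pass (edgeR, adjusted p = 0.239, 0.259, 0.0924 and 0.282). In M0 and M2 cells, 0 members were called at 2-fold after irradiation, beside 1.54% and 1.97% of all genes. Whether non-irradiated cells were kept for the further 24 h is not stated, so dose and time cannot be told apart.

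In M1 cells the members parted after irradiation. Pdk1 was the only one called higher at 2-fold, with 117 counts in M1 and 273 in RM1 and a log2 fold change of 1.04 (0.73 to 1.37), beside 3.08% of all genes, and 0 were called lower, beside 2.25%. Hk2 (0.88), Vegfa (0.86), Hif1a (0.83) and Bnip3 (0.79) lay below the threshold on the same side. Of the 15 enzymes 12 were below 0 (11 with library totals), led by Hk3 with 4941 counts in M1 and 2988 in RM1 (-0.90, -0.96 to -0.83), and Aldoa (-0.52), Pgk1 (-0.40), Tpi1 (-0.36), Eno1 (-0.35) and Pgam1 (-0.33) were among them. Several of these genes were those that had been furthest from M0 in M1, so that RM1 lay nearer to RM0 than M1 did to M0 for Pdk1, Bnip3, Aldoa, Pgk1 and Ndrg1. Over all genes, too, the 25th and 75th percentiles lay closer to 0 in RM1 against RM0 (-0.41 and 0.35) than in M1 against M0 (-0.58 and 0.46). M1 against M0 and RM1 against M1 both use the M1 library, and their opposite signs are therefore not separate evidence. With library totals, Hk2 (1.02) and Vegfa (1.01) were also called higher, and the genes named here kept their signs. In M0 cells 13 of the 15 enzymes were above 0 after irradiation, from -0.09 to 0.23, but 9 with library totals, and in M2 cells 11 were below, from -0.33 to 0.18, and 13 with library totals. Whether irradiation acted differently between the states was not tested, since a model with that term has no residual degrees of freedom.

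**Figure D5:**
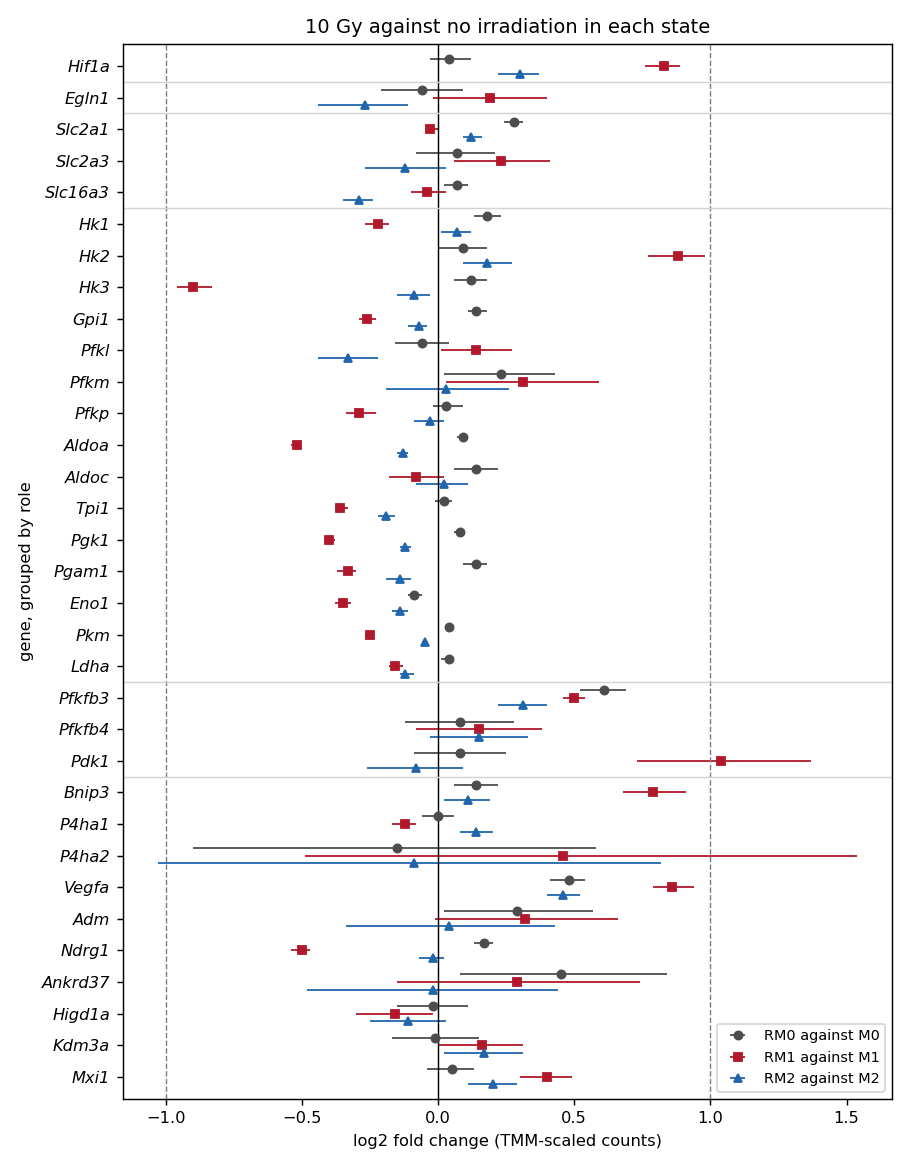
Log2 fold change after 10 Gy in M0 (circles), M1 (squares) and M2 cells (triangles) for 33 genes, with 95% exact intervals that cover counting error only and dashed lines at 2-fold. Vegfa and Pfkfb3 are above 0 in the 3 states, and the M1 values run from -0.90 for Hk3 to 1.04 for Pdk1.

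Set beside the Hif1a transcript, the other 32 members did not share its direction as a group, except by sign in RM0 against M0. Hif1a was at 0.54 in M1 against M0, where 16 members had its sign and 16 the opposite one. In RM1 against RM0, with Hif1a at 1.32, 18 had its sign and 14 did not, and 2 of the 32 (Slc2a1 and Pfkfb3) were called at 2-fold with it. Its values of 0.03 in M2 against M0 and 0.29 in RM2 against RM0 stood beside 28 and 30 members below 0. With library totals, Hif1a kept its sign in both M1 comparisons, at 0.10 and 1.07, while 21 and 20 of the 33 members were below 0. After irradiation Hif1a was at 0.83 in M1 and 0.30 in M2, with 15 and 13 members of the same sign, and with library totals 13 and 22 of the 33 members were below 0. In RM0 against M0, 25 members had its sign and 7 the opposite one, but Hif1a itself was close to 0 there, as in M2 against M0. Its interval included 0 in both, and in RM0 against M0 its sign turned with library totals (0.04 and -0.01). With library totals, 13 of the 33 members were below 0 in RM0 against M0. Where Hif1a was highest, in RM1, most enzymes were lower than in M1, and Pfkfb3 (0.50), Vegfa (0.86) and Kdm3a (0.16) were among those that were higher. Comparisons with a common library are given side by side only, and no correlation over the 6 libraries was computed because M1 and RM1 stand apart from the rest.

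Further genes of these pathways were counted in 6 lists. In the HIF complex and its degradation machinery, 5 of 13 tested genes passed edgeR as higher in the M1 state and 3 as lower. Over all genes the shares were 23.3% and 24.3%, and each count below is to be read beside them. Arnt, the partner of HIF1A, rose by 1.16 and Vhl, the recognition subunit of its ubiquitin ligase, by 0.96, while Crebbp, a coactivator, fell by 0.70 (edgeR, adjusted p = 5.42e-05, 0.000259 and 0.00313). Among other HIF targets 12 of 33 were higher and 6 lower. Nos2, the inducible nitric oxide synthase gene, rose by 3.42 and Pgf, a relative of Vegfa, by 2.87, whereas Angptl4, a secreted inhibitor of lipoprotein lipase, had 4 and 5 counts in the M1 libraries and 81 to 128 in the others (edgeR, adjusted p = 8.53e-06, 2.09e-06 and 1e-05). Of 13 other glycolytic isoenzymes and partners, 2 were higher and 2 lower. Eno2 rose by 1.15 and Eno3 fell by 1.58 (edgeR, adjusted p = 0.000113 and 8.73e-05). Gapdh had only 152 to 829 counts although its enzyme is abundant in most cells, and 74 other annotated genes share 100-base windows with it, so its rise of 2.07 (edgeR, adjusted p = 0.000251) is uncertain.

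The routes that branch from glycolysis gave counts on lists of 3 to 12 tested genes, beside the same 23.3% of all genes higher and 24.3% lower. Of 9 genes of the pentose phosphate branch, 1 was higher and 2 lower by edgeR, the latter being Pgd, which fell by 0.62, and H6pd, which fell by 0.57 (adjusted p = 0.00193 and 0.00355). Around pyruvate dehydrogenase, 2 of 12 were higher and 2 lower. Pdp1, the phosphatase that reverses the action of Pdk1, rose by 0.77, and Mpc1, a subunit of the mitochondrial pyruvate carrier, by 0.60 (edgeR, adjusted p = 0.00131 and 0.00919). Of 3 gluconeogenic genes tested, 2 were lower, Pck2 at -0.52 and Pcx at -0.44 (edgeR, adjusted p = 0.00459 and 0.0256).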

How the data were processed

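RNA of RAW264.7 cells in 6 conditions was sequenced, with RNA of 5 wells pooled into 1 library per condition. The submitters' processing notes name Trimmomatic (version 0.36), HISAT2 (2.2.1), HTSeq (0.11.3) and the build mm10, and the deposited files hold raw counts per RefSeq gene that the authors did not normalize. Whether counting used strand or multiply mapped reads is not given in the sources used here. Groups were taken from the sample titles.

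Counts were scaled by TMM in edgeR 4.0.16 (R 4.3.3), with log2 fold changes at a prior count of 2. A gene was called at 2-fold if it reached 10 counts in either library of the pair, which compares 2 libraries and has no p-value. With 3 counts or fewer in both, no fold change is given. Intervals are exact Clopper-Pearson at 95% and, like the limit of 3 counts, cover counting error only. State and irradiation were tested by edgeR's quasi-likelihood test (polarization plus irradiation, 2 residual degrees of freedom) over genes that reached 10 counts in 3 or more libraries, and p was adjusted by Benjamini-Hochberg (threshold 0.05). This test assumes the same effect in each state. It was tried on simulated counts in which 200 genes changed in the M1 state by a log2 fold change of 1 or 2. There it recovered 87.0% and 97.5% of them, with 10 and 4 false calls. The simulation gave both M1 libraries the same effect and changed far fewer genes than were called here. It therefore cannot show how the test performs on these data. Alternatives were DESeq2 1.42.0 size factors and test, library totals, other count minimums, prior counts and fold thresholds, each library or state left out, and a term dropped. Gene extents and transcript lengths came from GENCODE M21, and promoters from RefSeq on GRCm38.p6. Python 3.11.15 was used for the rest.

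The members and lists were chosen with earlier results of these data known. All members are named. Counts in every library are given for Hif1a, for members called in both M1 comparisons or after irradiation, and for further members chosen after their values were seen. Of each other list, at most 3 genes, those with 50 or more mean counts and the largest mean change in the M1 comparisons are named.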

Additional observations from a re-analysis of the deposited data

How the results depend on the processing

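The irradiation term was tested within the 3 pairs of libraries of a state, and no paired analysis by replicate number was possible because each condition has 1 library. With library totals, 1 member was called higher and 6 lower in M1 against M0, 1 lower in RM1 against RM0, 0 lower in RM2 against RM0 and 3 higher in RM1 against M1, 7 passed edgeR as higher and 10 as lower for the M1 state, and 0 for irradiation. At a 1.5-fold threshold, 9 were called higher and 6 lower in M1 against M0, 6 and 2 in RM1 against RM0, 5 and 1 in RM1 against M1, 2 lower in M2 against M0, 2 lower in RM2 against RM0 and 1 higher in RM0 against M0. At 4-fold, 1 was called higher in each M1 comparison and 0 in RM1 against M1, and 0 were lower in M1 against M0 and RM2 against RM0. Without the minimum of 10 counts, 1 more was lower in RM1 against RM0 (Egln3), and without edgeR's count filter 1 passed as lower for M2. DESeq2 passed 2 as higher after irradiation, and without the polarization term, which removes that pairing, 0 passed. With 1 library left out, edgeR passed 7 to 14 members as higher and 4 to 8 as lower for the M1 state, 0 to 16 as lower for M2 and 0 to 3 as higher for irradiation. With a whole state left out, 0 to 2 passed for irradiation. A library left alone in its state is given that state's whole difference and is assumed to vary like the rest. The causes were not tested. Shares over all genes are not set beside these counts, so the counts describe the processing and are not results about the members. DESeq2 size factors, the lower prior count and the minimum of 50 counts kept every count of calls at 2-fold within 1.5 times. No called fold change turned its sign under another scaling.

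With 1 library per condition, wells, handling and day cannot be told apart from the conditions. At this depth, counting error is small for most members and wide for P4ha2 and Ankrd37, and Egln3 could not be measured.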
